A study of Mus musculus with 8 samples.

Results

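The genes described here are 10 factors of naive pluripotency that lie outside the Krüppel-like (Klf) family: Esrrb, Tfcp2l1, Tbx3, Zfp42, Prdm14, Nr5a2, Nr0b1, Dppa3, Dppa5a and Tcl1. They were chosen by symbol, and all 10 had a row among the 55292 features of the deposited table of read counts. The libraries were made from poly(A)-selected RNA of mouse E14 embryonic stem cells of the 129/Ola strain, grown on gelatin in serum with leukaemia inhibitory factor (LIF). Wild-type E14 cells (2 libraries, untreated), lncSmad7-/- E14 cells (2 libraries, untreated), called the knockout below, and lncSmad7-/- E14 cells labelled as transfected with Smad7 (2 libraries, 24 h), called the labelled transfected knockout below, were compared. lncSmad7 is a long noncoding RNA, and Smad7 is an inhibitor of TGF-beta superfamily signalling. By their labels all 3 groups share the E14 background, the serum and LIF medium, and the strain. The knockout and the labelled transfected knockout also share the lncSmad7 deletion by label. Expression from the X and Y chromosomes differed between wild type and both other groups, as given below, so the shared background rests on the labels alone. The labels do not say whether the knockout was 1 clone or a pool of clones, and the replicates are called biological with no mention of independent cultures. The p-values below therefore rest on the spread between the 2 libraries of a group, which could be technical.

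Naive pluripotency is the state of the inner cell mass before implantation, and mouse stem cells hold it through a network of transcription factors that sits on top of the core factors Pou5f1, Sox2 and Nanog. LIF acts on the network through Stat3 and through phosphoinositide 3-kinase, and members of the network maintain each other's transcription. When cells leave the naive state these genes are silenced, and in serum they are expressed unevenly from cell to cell. In bulk RNA, fewer cells that express a gene and less RNA per cell cannot be told apart.

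Total counts per library lay between 13392941 and 20209760. Counts of the lncSmad7 feature were 237 and 221 (wild type), 140 and 105 (knockout) and 167 and 207 (labelled transfected knockout). Smad7 stood at 97.6 ± 0.048 CPM (read counts scaled to an equal effective library size; SD, n = 2), 72.5 ± 4.2 CPM and 96.6 ± 3.9 CPM in the same order. Neither value checks the label of the last group, in that lncSmad7 was also higher there than in the knockout and Smad7 was near its level in wild type. In the knockout the feature was still read, at 6.33 ± 1.14 CPM against 13.2 ± 1.15 CPM in wild type, so its value does not check that label either. Where the deletion lies relative to the feature is not given here, and knockout below means the libraries labelled lncSmad7-/-. The TMM factors, which scale each library, were 0.881 and 0.886 for wild type, 0.974 and 0.978 for the knockout, and 1.16 for both libraries of the labelled transfected knockout. Mitochondrial transcripts took 1.37% to 1.58% of counts in the other libraries and 2.33% to 2.48% in the labelled transfected knockout. Their part in the results below was not tested.

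The genes lie apart in the genome. By the GENCODE annotation of GRCm38, Prdm14 (13113457 to 13127163), Tfcp2l1 (118627945 to 118685168) and Nr5a2 (136842571 to 136960448) are on chromosome 1, and Esrrb (86361117 to 86521628) and Tcl1 (105216750 to 105222793) on chromosome 12. Tbx3 is on chromosome 5 (119670669 to 119684724), Dppa3 on 6 (122626410 to 122630272), Zfp42 on 8 (43295063 to 43306980), Dppa5a on 9 (78367052 to 78368177) and Nr0b1 on the X (86191764 to 86195947). All 10 are annotated as protein coding, and their counts are of reads over the whole gene symbol. The RefSeq table of promoters (GRCm38.p6), which gives 300 bases per start site, held entries for 6 of them: Esrrb, Tfcp2l1, Zfp42, Nr5a2, Nr0b1 and Tcl1. Each was searched on both strands for AAGGTCA, the element that Esrrb and Nr5a2 bind as monomers, TTCCNGGAA, bound by Stat3, ATGCAAAT, the octamer bound by Pou5f1, CCACACCC, bound by Klf factors, and GTCTAGAC, the palindrome bound by Smads. Of all genes with a promoter in that table, 5.38%, 1.35%, 1.97%, 4.09% and 0.248% held these motifs in the same order. Only Zfp42 among the 6 held any: the octamer, with its first base at −186 counted from the start site, and the Klf motif, with its first base at −75. These are matches of letters in a short window, and they show no binding. The 250 bases before the start are given for Zfp42, which holds both matches, and for Nr0b1 and Tcl1, which among genes above 10 CPM with a promoter entry had the widest ranges of level over the 3 groups. Capitals mark the motif matches.
Zfp42, chr8:43307010-43307259, minus strand: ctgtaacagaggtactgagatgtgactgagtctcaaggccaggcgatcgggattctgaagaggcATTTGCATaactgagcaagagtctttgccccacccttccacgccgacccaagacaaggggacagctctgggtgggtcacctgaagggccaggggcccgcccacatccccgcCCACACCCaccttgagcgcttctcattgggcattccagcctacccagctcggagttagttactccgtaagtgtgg
Nr0b1, chrX:86191525-86191774, plus strand: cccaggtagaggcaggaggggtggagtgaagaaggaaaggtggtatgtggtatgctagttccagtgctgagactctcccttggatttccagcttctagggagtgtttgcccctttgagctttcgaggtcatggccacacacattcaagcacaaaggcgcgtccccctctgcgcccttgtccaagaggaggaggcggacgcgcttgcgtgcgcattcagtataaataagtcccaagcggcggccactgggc
Tcl1, chr12:105222738-105222987, minus strand: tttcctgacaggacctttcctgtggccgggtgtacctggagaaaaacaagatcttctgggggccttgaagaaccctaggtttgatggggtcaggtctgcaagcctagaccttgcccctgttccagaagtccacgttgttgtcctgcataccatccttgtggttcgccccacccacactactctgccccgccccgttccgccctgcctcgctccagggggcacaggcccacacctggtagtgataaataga

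In wild type the 10 genes spanned a wide range of levels. Per kilobase of exon, Dppa5a stood highest at 1399 ± 83 CPM per kb (SD, n = 2), followed by Zfp42 at 340.3 ± 3.2, Esrrb at 117 ± 1.5, Nr0b1 at 72.7 ± 0.98, Tfcp2l1 at 46.7 ± 1.9, Tbx3 at 31.2 ± 1.9, Tcl1 at 25.5 ± 0.40, Nr5a2 at 17.6 ± 0.28, Prdm14 at 11.3 ± 0.60 and Dppa3 at 2.58 ± 0.28. Each neighbour in this order was separate from the next, in that the libraries of the pair did not overlap. The first 4 kept their places in the knockout and in the labelled transfected knockout. In the knockout Tcl1 came next at 89.7 ± 3.6 CPM per kb, above Tfcp2l1 (62.0 ± 0.42) and Tbx3 (44.8 ± 1.8), and Prdm14 (27.99 ± 0.14) stood above Nr5a2 (15.003 ± 0.30). Esrrb and Nr0b1 drew close there, at 167 ± 1.4 and 165 ± 0.81 CPM per kb. In the labelled transfected knockout Tfcp2l1 and Tcl1 were not separate, at 53.3 ± 0.90 and 52.9 ± 0.70 CPM per kb, and Prdm14 was again above Nr5a2. Together the 10 genes took 0.278% and 0.282% of all wild-type counts, 0.453% and 0.460% of knockout counts, and 0.342% and 0.343% of those of the labelled transfected knockout.

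**Figure D1:**
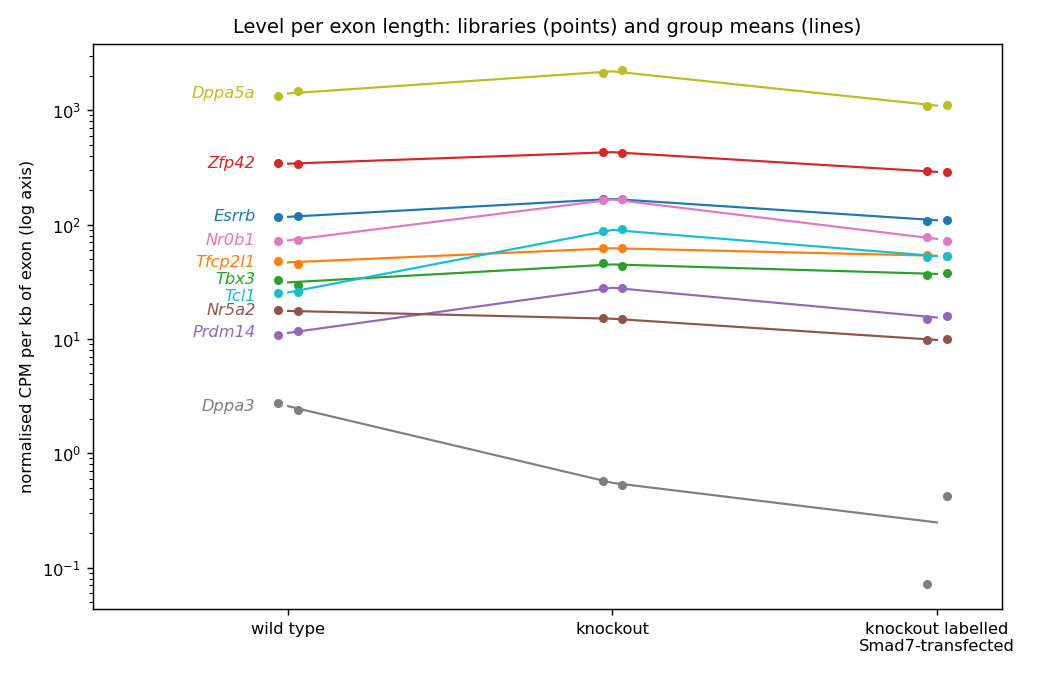
Level of each gene per kilobase of exon (normalised CPM per kb, log axis) in the 3 groups; points are single libraries and lines join group means. Dppa5a is highest in every group, and Tcl1 moves from 25.5 in wild type to 89.7 in the knockout, above Tfcp2l1 and Tbx3.

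The comparison of the knockout with wild type asks, as far as the label holds, what changes in untreated stem cells with lncSmad7 deleted. Of the 10 genes 8 rose and 2, Nr5a2 and Dppa3, fell, all past the threshold of 0.05 for the adjusted p of edgeR's quasi-likelihood test. Dppa3 passed the filter on low counts only through wild type, so it could be called only as lower, and its call lends no support. Among all 17342 genes tested 67.7% passed, 34.5% higher and 33.3% lower, so that a gene taken at large was about as often lower as higher. The median log2 fold of the 10 genes was 0.52, beside 0.02 over all genes tested. The libraries of the 2 groups were separate for all 10 genes, as they were for 82.5% of all genes. With library size scaling in place of TMM, 61.7% of all calls were higher in place of 50.9%, and the 10 genes gave 8 higher and 1 lower.

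Among the transcription factors, Prdm14, a PR domain protein that represses the de novo DNA methyltransferase genes and FGF receptor signalling, stood at 27.8 and 30.03 CPM in wild type and 72.0 and 71.5 CPM in the knockout. It rose 2.48-fold (log2 fold 1.31, SE 0.060, adjusted p = 1.7e-46). The groups did not overlap, and the gap between them was far wider than that between replicates. Esrrb, an orphan nuclear receptor and a target of Nanog, had 699 and 712 CPM in wild type and 1018 and 1006 CPM in the knockout, a log2 fold of 0.52 (SE 0.034, adjusted p = 1.7e-30). Tbx3, a T-box factor that LIF sustains through phosphoinositide 3-kinase, had 215 and 198 CPM against 305 and 288 CPM, also a log2 fold of 0.52 (SE 0.038, adjusted p = 3.8e-26). In neither gene did the groups overlap. With offsets for GC content and transcript length the log2 folds were 0.26 in Esrrb and 0.25 in Tbx3, still past the threshold. Tfcp2l1, a CP2-type factor downstream of Stat3, had 453 and 428 CPM against 588 and 582 CPM (log2 fold 0.41, SE 0.036, adjusted p = 2.0e-21). Zfp42, the zinc finger protein Rex1 and a widely used marker of the naive state, had 644 and 636 CPM against 817 and 798 CPM (log2 fold 0.33, SE 0.035, adjusted p = 1.3e-16). This was the smallest of the 8 rises with TMM, but with GC and length offsets Zfp42 stood at 0.35, above Tfcp2l1 (0.32), Esrrb and Tbx3.

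The 2 other nuclear receptors went opposite ways. Nr0b1, also called Dax1, lacks the usual DNA-binding domain and acts as a co-regulator. It had 130.2 and 132.7 CPM in wild type and 298 and 300.2 CPM in the knockout, a 2.28-fold rise (log2 fold 1.19, SE 0.039, adjusted p = 1.6e-63). Nr0b1 is the only one of the 10 on the X, and X-linked genes as a whole were higher in the knockout. Of 631 tested, 428 were higher and 67 lower, with a median log2 fold of 0.87 beside 0.00455 for 16324 autosomal genes. Nr0b1 lay above 65.3% of these X-linked genes, within the range from 0.22 to 1.51 that holds the middle 50% of them. X-linked genes took 2.86% of counts in both wild-type libraries, 4.94% and 4.93% of those of the knockout, and 5.25% and 5.21% of those of the labelled transfected knockout. The summed level of 4 Y-linked genes was 119 and 125 CPM for wild type, 4.84 and 4.10 CPM for the knockout, and 10.2 and 10.1 CPM for the labelled transfected knockout. The labelled genotype and the difference in sex chromosome expression cannot be told apart in these libraries. This holds for the folds against wild type of all 10 genes, not of Nr0b1 alone. Nr5a2, also called Lrh1, which shares its binding element with Esrrb, had 105 and 102 CPM in wild type and 89.8 and 87.2 CPM in the knockout. This was the smallest change of the 10 (log2 fold −0.23, SE 0.046, adjusted p = 4.6e-06). The call was lost with library size scaling (−0.083, adjusted p = 0.10), with GC and length offsets (−0.060, adjusted p = 0.21), or by glmTreat against a fold of 1.2 (adjusted p = 0.69).

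**Figure D2:**
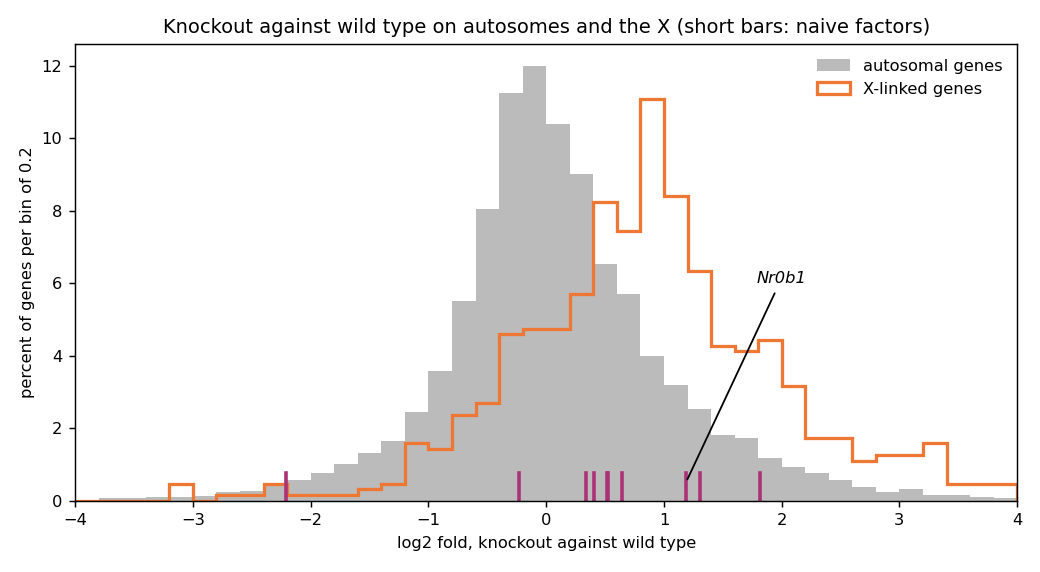
Distribution of log2 folds of the knockout against wild type, as the percent of genes in each bin, for autosomal genes (grey) and X-linked genes (orange line); short bars at the base mark the 10 naive factors. Genes beyond 4 in size are not drawn. The X-linked genes centre on 0.87, and Nr0b1 at 1.19 lies within their middle range.

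The other 3 genes encode no classical transcription factor. Tcl1, a coactivator of the kinase Akt, had 46.5 and 47.5 CPM in wild type and 160.7 and 170.2 CPM in the knockout. It rose 3.52-fold (log2 fold 1.81, SE 0.048, adjusted p = 1.4e-75), more than any other of the 10, and lay above 94.3% of all genes tested. Dppa5a, a KH domain protein that binds RNA, had 829.7 and 903 CPM against 1307 and 1397 CPM (log2 fold 0.64, SE 0.035, adjusted p = 2.8e-35). Its replicates lay further apart than those of Esrrb or Zfp42, yet the groups stayed separate. Dppa3, also called Stella, protects DNA methylation marks in the early embryo and binds Uhrf1. Its counts were 42 and 38 (wild type), 10 and 9 (knockout) and 1 and 7 (labelled transfected knockout). Only the wild-type libraries carried it past the filter on low counts, so it could enter the test only as a gene that was high there. Its wild-type level was 4.67 times that of the knockout, with an exact 95% interval of 2.80 to 8.16 that covers counting error only (log2 fold of knockout against wild type −2.21, SE 0.34, adjusted p = 4.5e-09).

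**Figure D3:**
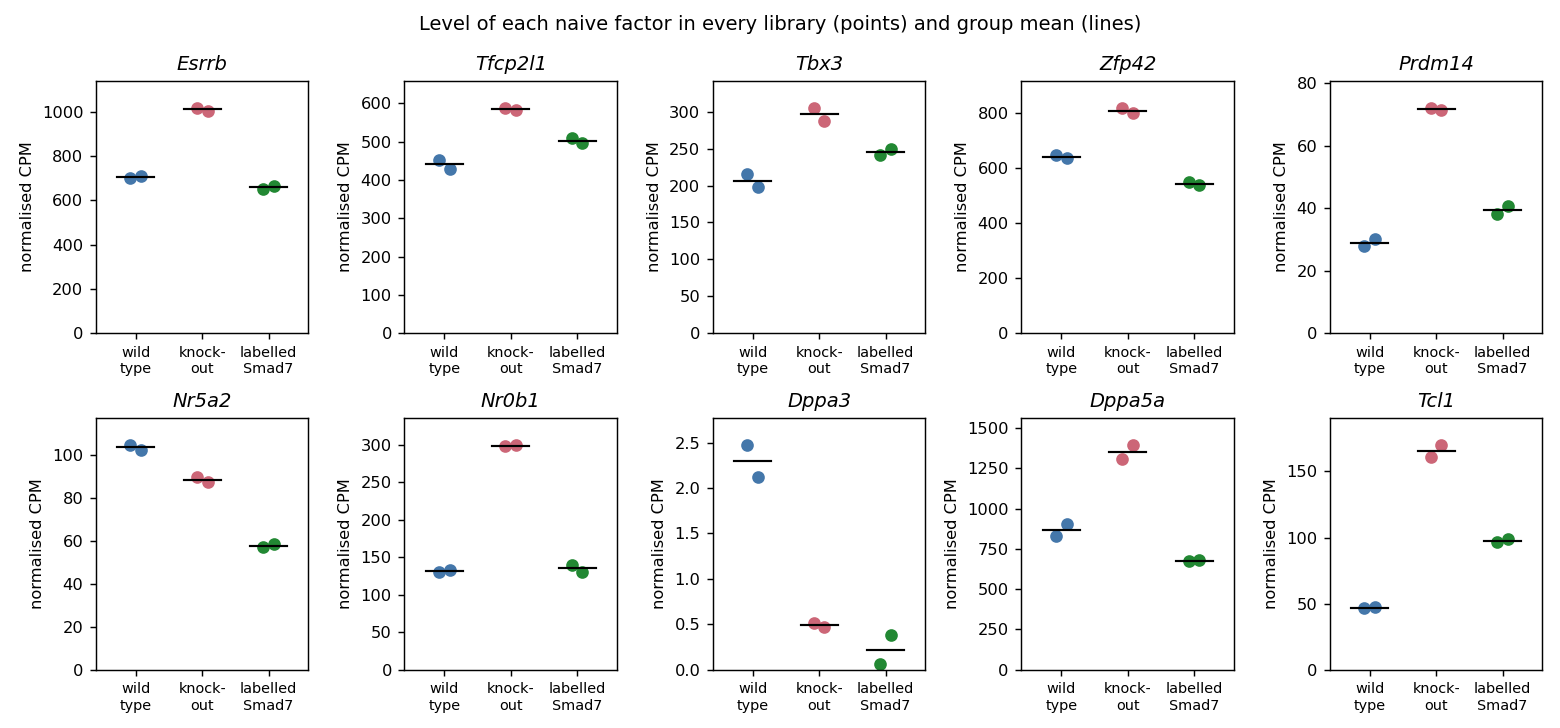
Normalised CPM of each gene in every library, with points for libraries and lines for group means; each vertical axis starts at 0 and has its own range. In 8 panels the knockout is highest, while Nr5a2 and Dppa3 are highest in wild type.

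The comparison of the labelled transfected knockout with the knockout sets cells labelled as transfected with Smad7, at 24 h, beside untreated cells, as far as the label holds. None of the libraries used was a mock-transfected knockout. Smad7, transfection itself and the handling over 24 h therefore cannot be told apart. Sex chromosome expression also differed between these 2 groups. In the labelled transfected knockout all 3 tested Y-linked genes were higher (median log2 fold 1.48), and Xist was higher by 3.04. The labelled treatment and this difference cannot be told apart in these libraries. Of the 10 genes 9 fell and 0 rose, and Dppa3 did not pass the test. Of all genes tested 74.6% passed, 37.8% higher and 36.8% lower, and the median log2 fold of the 10 was −0.69 beside 0.04 over all genes. Both comparisons share the knockout libraries, so the folds of a gene in them are not independent. All 10 genes had both labelled transfected libraries below both knockout libraries, and the groups were separate for 86.3% of all genes. Library size scaling raised the share of higher calls over all genes from 50.7% to 65.7% and the median log2 fold of all genes from 0.04 to 0.29, and left 7 of the 10 genes lower.

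Nr0b1 changed most. It had 139.96 and 131 CPM in the labelled transfected knockout against 298 and 300.2 CPM in the untransfected cells (log2 fold −1.15, SE 0.039, adjusted p = 1.2e-61). X-linked genes as a whole did not share that direction, with 266 of 631 higher, 215 lower and a median of 0.10. Dppa5a, at 675 and 681 CPM, fell by 0.995 on the log2 scale (SE 0.036, adjusted p = 4.6e-53), or by 0.64 with GC and length offsets. Prdm14, at 38.1 and 40.7 CPM, changed by −0.86 (SE 0.057, adjusted p = 8.4e-31), and Tcl1, at 96.7 and 98.5 CPM, by −0.76 (SE 0.043, adjusted p = 3.3e-37). In each of these 4 genes the replicates lay close together and the groups apart.

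Esrrb had 651 and 666 CPM in the labelled transfected knockout (log2 fold −0.62, SE 0.035, adjusted p = 1.7e-37), and Zfp42 had 547 and 538 CPM (−0.57, SE 0.035, adjusted p = 6.5e-34). Nr5a2 had 57.2 and 58.3 CPM (−0.61, SE 0.050, adjusted p = 1.7e-23). With library size scaling Esrrb, Zfp42 and Nr5a2 stood at −0.37, −0.33 and −0.37 and still passed, while with GC and length offsets they stood at −0.51, −0.49 and −0.78. Tfcp2l1 (509 and 497 CPM; log2 fold −0.22, SE 0.035, adjusted p = 1.6e-08) and Tbx3 (241 and 249 CPM; −0.27, SE 0.038, adjusted p = 8.9e-11) changed least. Neither passed with library size scaling, where Tfcp2l1 turned to 0.029 (adjusted p = 0.45) and Tbx3 stood at −0.026 (adjusted p = 0.52), or by glmTreat against a fold of 1.2 (adjusted p = 0.80 and 0.24). Dppa3 was at −1.04 (SE 0.59, adjusted p = 0.10), and the knockout held 2.09 times its level in the labelled transfected knockout with an exact 95% interval for counting error from 0.873 to 5.52. Leaving out the second labelled transfected library, which held 7 of the group's 8 counts, gave −2.81 (adjusted p = 0.014), and leaving out the first gave −0.38.

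**Figure D4:**
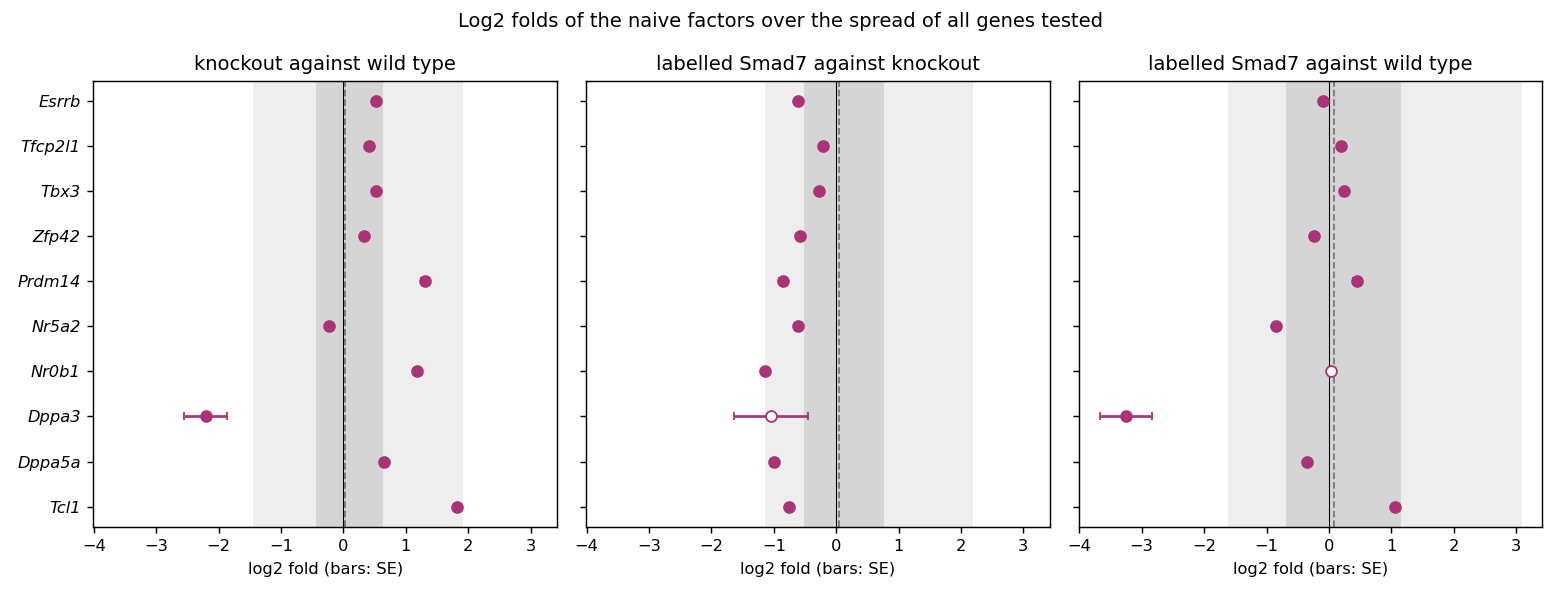
Log2 folds of the 10 genes with SE in the 3 comparisons by edgeR's quasi-likelihood test; filled points passed the threshold of 0.05 and open points did not. Dark and light bands hold the middle 50% and 90% of all genes tested, and the dashed line is their median. Tcl1 rises most in the first panel at 1.81, and the 9 filled points of the middle panel all lie below 0.

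The comparison of the labelled transfected knockout with wild type shows how far each gene stood from the unmodified cells, and it split the 10 genes. Tcl1, Prdm14, Tbx3 and Tfcp2l1 were higher than in wild type, Dppa3, Nr5a2, Dppa5a, Zfp42 and Esrrb were lower, and Nr0b1 did not pass the test. Over all genes 81.9% passed, 43.1% higher and 38.8% lower, and 89.9% had separate libraries, as 9 of the 10 did. Tcl1 was 2.08-fold above wild type (log2 fold 1.05, SE 0.051, adjusted p = 4.7e-44) and Prdm14 1.36-fold (0.45, SE 0.067, adjusted p = 1.2e-09). Nr5a2 was lower by 0.84 on the log2 scale (−0.84, SE 0.0496, adjusted p = 1.3e-35). Dppa3 was at −3.25 (SE 0.42, adjusted p = 3.6e-12), and at −2.58 or −5.00 without the first or the second labelled transfected library. It passed the filter on low counts only through wild type, so the filter fixed its direction here, and its call lends no support.

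Tbx3 (0.25) and Tfcp2l1 (0.19) stood above wild type under every alternative, at 0.64 and 0.58 with library size scaling. With GC and length offsets Tbx3 was at 0.074 (adjusted p = 0.042) and Tfcp2l1 at 0.060 (adjusted p = 0.058), and neither was called by glmTreat against a fold of 1.2. For the other 4 genes the place relative to wild type turned on the scaling. Dppa5a (−0.35), Zfp42 (−0.24) and Esrrb (−0.099, adjusted p = 0.0068) were below wild type with TMM, whereas with library size scaling they stood at 0.039, 0.15 and 0.29. With GC and length offsets Dppa5a stood at −0.00022 (adjusted p = 0.995). The labelled transfected libraries of Nr0b1, at 139.96 and 131 CPM, overlapped those of wild type, at 130.2 and 132.7 CPM (log2 fold 0.04, SE 0.042, adjusted p = 0.39). Nr0b1 was higher with library size scaling, at 0.43 (adjusted p = 5.0e-19), and where 1 CPM in 4 libraries was required, at 0.15 (adjusted p = 0.00092). The split over the 10 genes was 4 higher and 5 lower with TMM, and 7 higher and 2 lower with library size scaling, under which the median log2 fold of all genes moved from 0.09 to 0.48. By glmTreat against a fold of 1.2 only 5 of the 10 were called, 2 higher (Tcl1 and Prdm14) and 3 lower (Nr5a2, Dppa3 and Dppa5a).

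**Figure D5:**
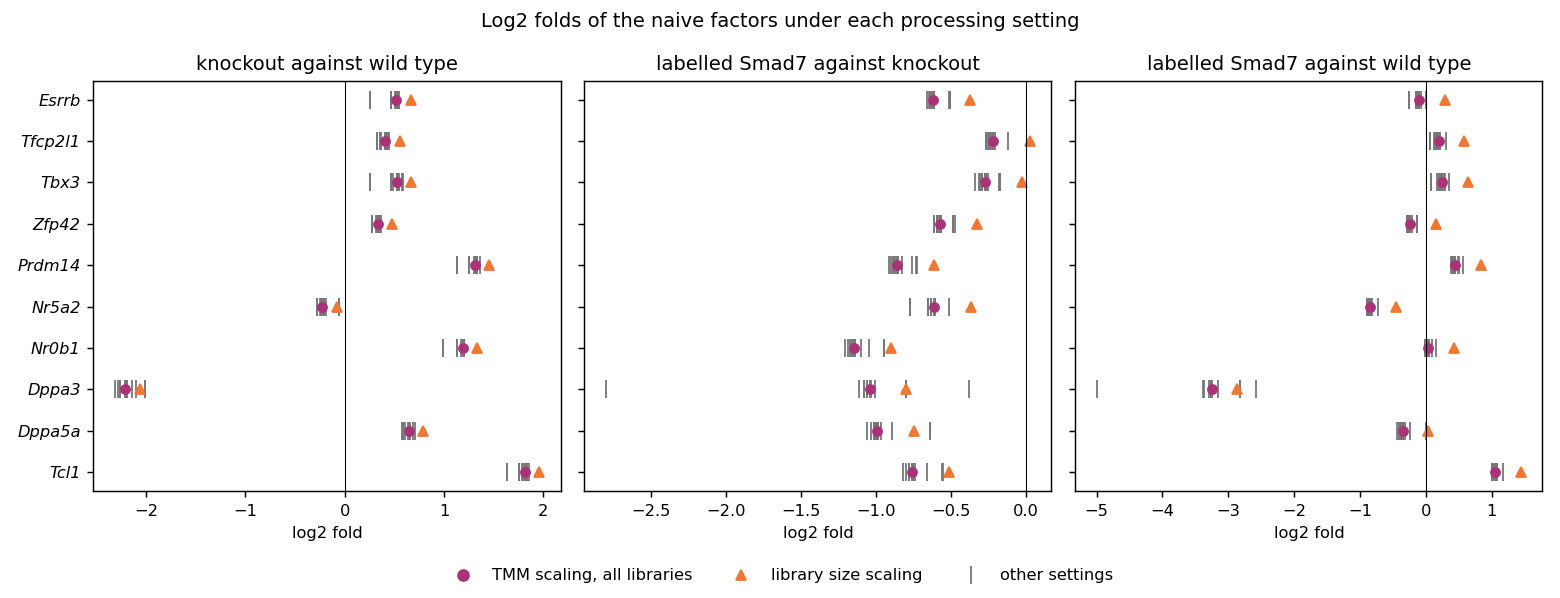
Log2 folds of the 10 genes in the 3 comparisons with TMM scaling (circles), with library size scaling (triangles) and under the other settings (ticks). In the right panel the triangles of Esrrb, Zfp42 and Dppa5a lie above 0 while their circles lie below it.

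Reads from near-identical copies can be split between genes, and how shared reads were treated is not given here. Transcripts of other genes with at least 90% identity over at least 200 bases were found for Zfp42, Dppa5a and Dppa3. Zfp42-ps1, a processed pseudogene of 98.1% identity over 266 aligned bases, took 970 and 1168 counts (wild type), 1488 and 1403 (knockout) and 785 and 1028 (labelled transfected knockout). Those counts were 8.88% to 10.3% of the counts of Zfp42 in each library, and Zfp42-ps1 had log2 folds of 0.29, −0.49 and −0.20 in the 3 comparisons where Zfp42 had 0.33, −0.57 and −0.24. The value of Zfp42 is therefore uncertain, and this share does not bound its error, since reads dropped as shared would be in neither count. Of 10 look-alikes of Dppa5a, the 9 other than Pigp, whose transcripts hold 417 bases of 95.9% identity, summed to 0.342% to 0.681% of its counts. Pigp itself had 121 to 232 counts per library and changed by 0.61 in the labelled transfected knockout, where Dppa5a fell. Dppa3-ps had 1 count in all. Tbx3 shares 115 exonic bases with Tbx3os1 on the opposite strand, which had 16 to 42 counts per library against at least 3538 for Tbx3.

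The closest relatives of the 10 genes ranged in wild type from no counts, as in Yy2, to a mean of 202 CPM in Yy1. Of 16 listed paralogs 7 passed the filter on low counts, as did 17342 of all 55292 features. Of these paralogs 3 were higher and 1 lower in the knockout. In the labelled transfected knockout against the knockout 2 were higher and 3 lower. Over all genes tested 67.7% and 74.6% were called in these comparisons, so the counts set the paralogs apart in neither. None of the 5 Tcl1b genes beside Tcl1 passed the filter, nor did Nr5a1 and Nr0b2, and the most counts that any untested paralog had in a library was 10 (Nr0b2). Prdm1, the germ cell and B cell repressor related to Prdm14, rose by 1.46 in the knockout. Esrra rose by 0.75 and Tfcp2 by 0.71, whereas Yy1, to which Zfp42 is related, changed by −0.49.

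Other genes of the naive network did not move as one in the knockout. Of a list of 20, 9 were higher and 7 lower against wild type, with a median log2 fold of 0.01. Beside the counts given here, 34.5% of all genes were higher and 33.3% lower in the knockout. In the labelled transfected knockout against the knockout the shares were 37.8% and 36.8%. Klf2 (1.79), Klf4 (1.601), Klf5 (1.19) and the lysosomal enzyme gene Manba (1.22) had the smallest adjusted p-values. In the labelled transfected knockout against the knockout 4 were higher and 15 lower, with a median of −0.44. Core pluripotency genes had 3 of 8 higher and 5 lower in the knockout (median −0.49) and 2 higher and 6 lower in the labelled transfected knockout against the knockout (median −0.65). There Zfp281 (−1.43), Lin28a (−1.04), Utf1 (−0.90) and Trim28 (−0.47) fell from wild type to knockout. Formative and primed genes, which rise when cells leave the naive state, had 5 of 15 higher and 8 lower in the knockout, and 4 higher and 9 lower in the second comparison. With library size scaling the first count turned to 7 higher and 6 lower. The 4 with the smallest adjusted p in the knockout were Dnmt3a (−2.38), Dnmt3l (−0.70), Dnmt3b (−0.66) and Otx2 (0.80). In the second comparison Dnmt3a, Dnmt3l and Dnmt3b fell again (−0.53, −0.53 and −1.66), while Otx2 rose again (0.40). The other listed genes higher in both comparisons were Fgf5 (1.45 and 0.96), Cdh2 (0.91 and 1.27) and Nodal (0.48 and 0.67). Fgf5 had 5 to 47 counts per library.

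A list of 7 genes linked to repression through Prdm14, or to Dppa3, had 5 lower and 2 higher in the knockout, where Prdm14 rose. Over all genes tested 67.7% were called there, and 74.6% in the labelled transfected knockout against the knockout. The de novo methyltransferase genes Dnmt3a and Dnmt3b and their cofactor Dnmt3l changed by −2.38, −0.66 and −0.70. Uhrf1, the partner of Dppa3 and of maintenance methylation, rose by 0.40. Of the FGF receptor genes, Fgfr1 rose by 0.44 (adjusted p = 6.5e-18) and Fgfr2 changed by −1.05 (adjusted p = 9.6e-06). The fifth lower gene was Xist, at −0.75. Fgfr1, Fgfr2 and Xist belong to the list but were singled out after their values were seen. In the labelled transfected knockout against the knockout, where Prdm14 fell, 2 were higher, Xist by 3.04 and Fgfr1 by 0.30, and 4 lower. There Dnmt3a, Dnmt3b and Dnmt3l changed by −0.53, −1.66 and −0.53. Xist had counts of 431 and 392 (wild type), 291 and 250 (knockout) and 1831 and 2081 (labelled transfected knockout).

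Markers of other cells moved with these groups. Over all genes tested 34.5% were higher and 33.3% lower in the knockout, and 37.8% and 36.8% in the labelled transfected knockout against the knockout. All 12 genes of a primitive endoderm list were lower in the knockout, with a median log2 fold of −2.71, among them Col4a1 (−2.25), Dab2 (−5.26), Cubn (−5.85) and Col4a2 (−1.83). Their summed level was 485 and 472 CPM for wild type, 170.1 and 161.9 CPM for the knockout, and 219 and 228 CPM for the labelled transfected knockout, where 7 were higher and 1 lower than in the knockout. Most of that sum came from Lama1, Col4a1 and Col4a2 in every group, and Lama1 alone had means of 170, 111 and 94.3 CPM in the same order. Wild type, highest in these markers, was below the knockout in 8 of the naive factors. Listed fibroblast and feeder genes summed to 1249 and 1228 CPM, 1500.3 and 1439 CPM, and 1819 and 1907 CPM, nearly all of it from Vim and Fn1. Of its 7 genes 4 were tested, with 3 higher and 0 lower in the knockout and 4 higher in the labelled transfected knockout against the knockout. Among them Col1a1 had 15 to 38 counts per library and rose by 1.39 in the latter (adjusted p = 2.1e-05), and Thy1 had 54 to 124 counts and rose by 0.58 and 0.36, while Col3a1 and Postn had at most 2 counts in any library. Trophectoderm genes summed to 42.2 to 52.4 CPM, while members of the list moved apart. In the knockout the keratin genes Krt8 and Krt18 changed by −1.70 and −2.69 and Tfap2c by 2.03, all past the threshold. Of 6 tested, 3 were higher and 1 lower in the labelled transfected knockout against the knockout. The higher ones were Eomes (0.87), Krt7 (3.60; 1 to 13 counts per library) and Hand1 (1.03; 8 to 28 counts), and Tfap2c was lower (−0.22). Cdx2 had 1 to 8 counts and Elf5 0 or 1. None of the 10 genes of 2-cell-like cells in the table passed the filter, and their sum was at most 0.631 CPM. The part of these cells in the naive factors was not tested.

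By distance over the pair of log2 folds (knockout against wild type, labelled transfected knockout against knockout), among genes of at least 20 CPM on average, the genes nearest to Tcl1 were Grasp, Dpysl3 and Lrig1, at 0.060, 0.067 and 0.13 on the log2 scale. Grasp had mean levels of 19.4, 68.6 and 42.1 CPM in the order wild type, knockout and labelled transfected knockout, and Tcl1 had 47.0, 165 and 97.6 CPM. Nearest to Dppa3, which had the widest range of the 10, were Lrp2 (0.16), Nefh (0.24) and Snhg4 (0.37). Lrp2, an endocytic receptor that works with Cubn, had means of 155, 37.4 and 17.7 CPM, and Dppa3 had 2.30, 0.492 and 0.222 CPM. These distances are below the SE of 0.59 of the second fold of Dppa3, which was not called, so the order of its neighbours is uncertain. This likeness is over 6 libraries in 3 groups.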

How the data were processed

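Read counts per gene symbol were measured in 8 samples, of which 6 matched a column of the deposited table by group and replicate; 2 further columns matched no label and were not used, so the knockout transfected with lncSmad7 was not analysed here. The authors deposited raw counts. STAR and featureCounts 1.6.3, with the builds mm10 and GRCm38, are named in the submitters' processing notes, with no role or order; no source used here gives the annotation, strand setting or treatment of shared reads.

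The counts were filtered with filterByExpr, which left 17342 genes, scaled with TMM factors, and tested with edgeR 4.0.16 (quasi-likelihood, robust; limma 3.58.1, R 4.3.3) in 1 fit of 6 libraries in 3 groups (residual degrees of freedom 3). Benjamini-Hochberg adjustment ran over the 17342 genes, and 0.05 was the threshold. The SE is the log2 fold divided by the square root of the F statistic, and the common biological coefficient of variation was 2.47%. Replicates differed by more than sampling noise (chi-square per degree of freedom 1.57, 1.72 and 1.89 in wild type, knockout and labelled transfected knockout). The steps were run on simulated counts in which a small share of genes was changed, in the knockout alone and in random directions. Far more genes were called in the real data, so that run could not test the scaling.

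Levels per kilobase use merged exons of GENCODE release M21. From most other lists the text names at most 4 genes, those with the smallest adjusted p in knockout against wild type. It also names the genes nearest to the 2 members of widest range. Outside that rule, the list linked to Prdm14 is named in full. Further genes, some of them untested, are named from the paralog, formative and primed, primitive endoderm, fibroblast and feeder, and trophectoderm lists. Members and lists were chosen with earlier results of these data known. Alternatives were RLE and library size scaling, DESeq2 1.42.0, 2 other filters, only the 4 libraries compared, a replicate block, GC and length offsets (mgcv 1.9.3, with values for 97.8% of genes), both together, glmTreat, and each replicate left out.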

Additional observations from a re-analysis of the deposited data

How the results depend on the processing

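Over 30 values (10 genes in 3 comparisons) and their alternatives, 450 of 476 kept direction and side of the threshold, 14 lost the call, 3 gained it and 9 changed sign. All sign changes but that of Tfcp2l1 between the labelled transfected knockout and the knockout (0.029 with library size scaling) lay in the labelled transfected knockout against wild type. There library size scaling gave Esrrb 0.29, Zfp42 0.15 and Dppa5a 0.039. Requiring 1 CPM in 4 libraries gave Esrrb 0.0087, and the replicate block with GC and length offsets gave Dppa5a 0.00016. Nr0b1 was −0.0093 with RLE scaling, −0.0086 by DESeq2 and from −0.0069 (without the first labelled transfected library) to 0.099 with a replicate left out, and gained a call at 0.43 with library size scaling and at 0.15 where 1 CPM in 4 libraries was required. The number of the 10 genes called was 5 by glmTreat in that comparison, which demands a larger change. Esrrb was not called there without the first labelled transfected library (−0.080, adjusted p = 0.062). Leaving out a replicate gave 10 called genes in knockout against wild type throughout, 9 or 10 in the second comparison and 8 or 9 in the third.

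Replicate numbers are given by the labels without a word on shared batches, and with 2 pairs they were not taken to pair the libraries; deviations of same-numbered libraries correlated at 0.13, 0.037 and 0.073. With the replicate as a block the counts of the 10 genes were 10, 9 and 9, as without it. Depth limits Dppa3 most, whose 8 counts in the labelled transfected knockout leave its change from the knockout open to a wide interval.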

Other observations

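Genes of primordial germ cells, a cell type that shares Dppa3, Prdm14 and Dppa5a with naive stem cells, were split. Of 8 listed genes 4 were higher and 3 lower in the knockout than in wild type, where 67.7% of all genes passed edgeR's quasi-likelihood test. The transcription factor Tfap2c had 166 and 171 counts (wild type) against 770 and 754 (knockout), a log2 fold of 2.03 (SE 0.086, adjusted p = 4.9e-50). The receptor gene Kit rose by 1.27 and Prdm1 by 1.46, while the RNA helicase gene Ddx4 changed by −1.48. In the labelled transfected knockout against the knockout 2 were higher and 4 lower, with Ddx4 at 1.24 and Kit at −0.70. There 74.6% of all genes were called. Summed over the list the level was 115 CPM in both wild-type libraries, 199 and 203 CPM in the knockout, and 154 and 158 CPM in the labelled transfected knockout.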
